A study of Homo sapiens with 6 samples.

Results

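MHC class I molecules carry peptides from inside the cell to its surface, and 9 genes of that pathway were followed here in an ovarian clear cell carcinoma line. They are the heavy chain genes HLA-B, HLA-C and HLA-E, the light chain gene B2M, the peptide transporter genes TAP1 and TAP2, the tapasin gene TAPBP and the immunoproteasome subunit genes PSMB8 and PSMB9. They were taken by gene symbol from a table of 16910 genes. HLA-B, TAPBP and PSMB9 carry their Ensembl identifier after the symbol there and were matched without it. The 9 genes are all in the table, and all 9 were among the 13235 genes that passed a filter on low counts.

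The data are 6 RNA-seq libraries, described in the labels as enriched for poly(A) RNA, of TOV21G, an established cell line derived from an ovarian clear cell carcinoma, in 3 groups of 2. The siGYS1 libraries are labelled as a knockdown of GYS1, the muscle-type glycogen synthase gene, and the sip53 libraries as a knockdown of p53, the tumour suppressor. The NC libraries are labelled WT and serve as the control, and the labels do not spell out what NC stands for. Nothing in the labels says whether the 2 libraries of a group came from separate cultures, how long after transfection the cells were taken or which siRNA sequences were used, so p-values measure only the spread between these libraries. With 2 libraries against 2, a two-sided exact permutation test of a single value cannot go below p = 0.333, so calls rest on a fit across all genes.

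Cytosolic proteins are cut into peptides by the proteasome, and interferon-induced catalytic subunits turn it into the immunoproteasome, whose products fit class I molecules well. The TAP1 and TAP2 proteins form the transporter that moves peptides into the endoplasmic reticulum, where tapasin holds empty class I molecules next to it. A heavy chain, B2M and a peptide together form the molecule that CD8+ T cells read at the cell surface. Tumour cells can escape these T cells by lowering any of these parts, and NK cells read class I molecules as an inhibitory signal. Class I genes are classically driven by NF-kB, by interferon-regulated factors at the interferon-stimulated response element, and by the NLRC5 and RFX complex at the SXY module.

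The promoter windows of 5 of the genes are shown. HLA-B, B2M and TAP1 rose with sip53 below, and PSMB8 and PSMB9 did not. The windows of HLA-C, TAP2 and TAPBP, which also rose, are not shown. Each window runs 5′ to 3′ on its gene's strand from 250 bases before to 50 bases after the start, from RefSeq on GRCh38.p14. Capitals mark matches to an NF-kB site or to the core of the interferon-stimulated response element (GAAANNGAA), searched on both strands. TAP1 and PSMB9 lie next to each other on chromosome 6, point away from each other and start 488 bases apart, so their windows meet.
HLA-B (chr6:31357130-31357429, minus strand): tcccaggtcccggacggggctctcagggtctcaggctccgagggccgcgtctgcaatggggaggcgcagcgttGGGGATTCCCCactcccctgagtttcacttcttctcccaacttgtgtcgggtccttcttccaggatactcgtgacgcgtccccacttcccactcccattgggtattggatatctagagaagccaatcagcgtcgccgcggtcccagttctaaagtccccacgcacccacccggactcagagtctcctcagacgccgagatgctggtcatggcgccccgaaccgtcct
B2M (chr15:44711267-44711566, plus strand): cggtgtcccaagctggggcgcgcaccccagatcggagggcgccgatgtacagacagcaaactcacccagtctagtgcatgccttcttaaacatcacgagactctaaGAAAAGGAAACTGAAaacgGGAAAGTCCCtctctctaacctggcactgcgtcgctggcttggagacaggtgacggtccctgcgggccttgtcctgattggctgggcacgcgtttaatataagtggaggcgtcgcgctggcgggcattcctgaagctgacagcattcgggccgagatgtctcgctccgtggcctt
TAP1 (chr6:32853655-32853954, minus strand): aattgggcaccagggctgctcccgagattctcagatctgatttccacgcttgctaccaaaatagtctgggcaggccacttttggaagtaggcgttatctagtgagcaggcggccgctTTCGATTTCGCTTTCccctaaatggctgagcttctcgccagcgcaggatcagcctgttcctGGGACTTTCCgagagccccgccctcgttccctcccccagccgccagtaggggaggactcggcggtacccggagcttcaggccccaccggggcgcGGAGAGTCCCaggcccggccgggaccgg
PSMB9 (chr6:32853942-32854241, plus strand): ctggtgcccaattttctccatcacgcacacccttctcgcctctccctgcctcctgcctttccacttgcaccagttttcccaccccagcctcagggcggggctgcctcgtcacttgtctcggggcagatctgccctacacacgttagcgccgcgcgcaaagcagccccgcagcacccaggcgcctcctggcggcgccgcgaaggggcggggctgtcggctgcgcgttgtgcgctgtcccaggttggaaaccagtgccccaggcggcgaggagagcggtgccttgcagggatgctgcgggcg
PSMB8 (chr6:32844630-32844929, minus strand): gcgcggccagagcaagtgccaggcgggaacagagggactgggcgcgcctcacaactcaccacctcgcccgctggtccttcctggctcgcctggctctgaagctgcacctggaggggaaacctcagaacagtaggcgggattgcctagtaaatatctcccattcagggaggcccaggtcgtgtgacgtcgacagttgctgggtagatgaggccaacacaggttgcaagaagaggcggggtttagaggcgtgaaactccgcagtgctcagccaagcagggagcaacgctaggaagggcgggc

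Of the 9 genes, 8 had a window in the RefSeq table, and HLA-E did not. An NF-kB match was in 5 of the 8 windows, those of HLA-B, HLA-C, B2M, TAP1 and TAPBP, against 5.91% of 35116 promoter windows of the same length. The interferon-stimulated response element core was in 4 of the 8, those of B2M, TAP1, TAP2 and TAPBP, against 8.11% of all windows. Only the letters GAAANNGAA were searched. A window without a match, as in HLA-B and HLA-C, can therefore hold another form of the element. The searched windows of PSMB8 and PSMB9 held neither. PSMB8 and TAP1 have 2 windows each in the RefSeq table, and a single window of each gene was searched. The PSMB9 window ends before the TAP1 matches that lie between both starts, so its lack of a match depends on the window length. In the B2M, TAP1 and TAPBP windows the response element core matched at 2 overlapping places. The CCAAT box (CCAAT), a form of which is the Y box of the SXY module, was in 5 of the 8 windows against 34.6% of all windows. The TAP1 and PSMB9 matches are the same site, in the bases that their windows share. The SXY module as a whole was not searched for. The core of the cyclic AMP response element (TGACG) was in 6 of 8 against 24.6%, and the GC box (GGGCGG) in 6 of 8 against 45.0%. The STAT dimer site (TTCNNNGAA) was in none of the 8 windows and in 7.66% of all windows. These are matches of letters in the reference sequence, not measured binding. The motifs were chosen after the fold changes were known, and their part in any change was not tested.

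**Figure D1:**
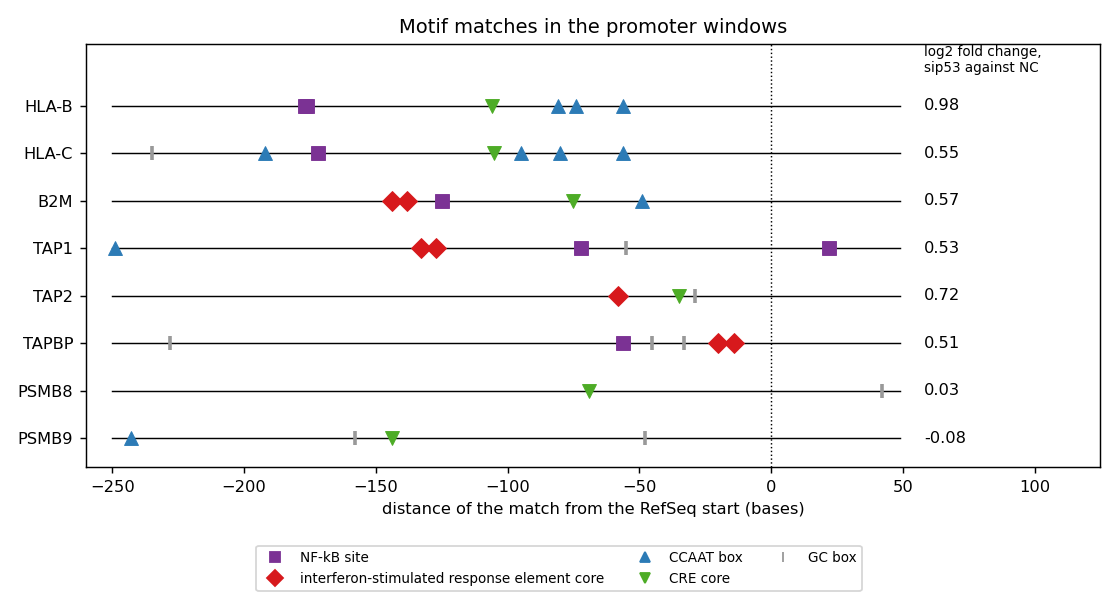
Each line is the promoter window of 1 gene, the x axis is the distance in bases from the RefSeq start, and each symbol is the start of a motif match on either strand. The number on the right is the log2 fold change of sip53 against NC: the 6 windows with an NF-kB or response element match belong to the genes at 0.51 to 0.98, and PSMB8 and PSMB9 are at 0.03 and -0.08. PSMB10, which is not drawn, holds a response element core match and did not pass (log2 0.24, adjusted p = 0.228). The motifs were chosen after these fold changes were known, and their part in the changes was not tested. For TAP1 and PSMB8 a single window of 2 was searched. The PSMB9 window stops short of the TAP1 matches that lie between both starts.

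All 9 genes were detected in all 6 libraries. In NC, B2M was the most abundant of the 9 at 453 ± 19.7 FPKM (a read count scaled by transcript length and library depth, mean ± SD of 2 libraries), which is above 98.4% of the tested genes. HLA-C followed at 144 ± 4.5 FPKM and HLA-B at 132 ± 4.0 FPKM. HLA-E at 83.0 ± 3.1 FPKM and TAPBP at 82.8 ± 4.16 FPKM overlapped. PSMB8 was at 52.7 ± 1.48 FPKM, TAP1 at 37.2 ± 0.559 FPKM and PSMB9 at 25.7 ± 2.16 FPKM. TAP2 was the lowest at 7.73 ± 0.792 FPKM, above 37.3% of the tested genes. Per length, TAP1 was 4.53 to 5.13 times as abundant as its partner TAP2 in the NC libraries. The same order held in the siGYS1 libraries, except that HLA-C overlapped HLA-B and PSMB8 overlapped TAP1. In the sip53 libraries HLA-B was above HLA-C, TAPBP was above HLA-E, and TAP1 and PSMB8 overlapped.

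**Figure D2:**
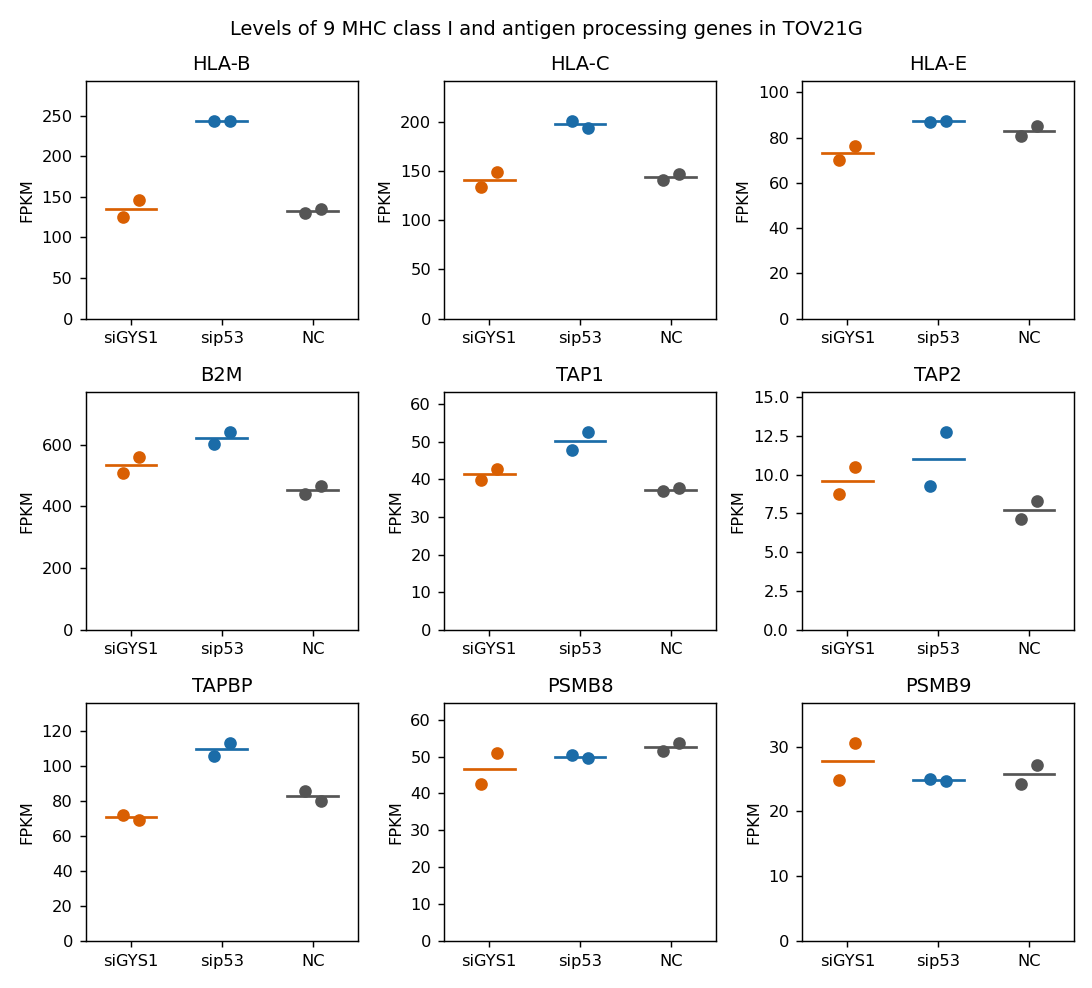
FPKM of the 9 genes on the y axis of each panel, with 1 point per library and a bar at the mean of the 2 libraries of a group. In the HLA-B panel the sip53 libraries stand at 243.70 and 242.99, above the siGYS1 and NC libraries, while in the PSMB9 panel all groups lie between 24.20 and 30.59.

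Some facts of the libraries bear on every value. Their expected counts sum to between 17425000 and 18097337. GYS1 was at 1.69 and 1.67 FPKM with siGYS1 and at 28.57 and 27.26 FPKM with NC, so the siGYS1 label holds at the RNA level (log2 fold change -3.99, standard error 0.11, edgeR adjusted p = 1.28e-07). All 9 listed epithelial and clear cell markers were detected, and their FPKM summed to 494 and 556 with siGYS1, 544 and 535 with sip53, and 665 and 681 with NC. Of these 9, 0 rose and 4 fell with siGYS1, beside 19.7% of all tested genes that passed, and the 4 calls were lost without NC replicate 2. With sip53, 1 rose and 4 fell, a share near the 49.9% of all tested genes that passed. The marker that rose, MUC1, passed narrowly (adjusted p = 0.0494), and 0 rose with DESeq2, with limma on FPKM or without either NC replicate. Of 12 leukocyte and antigen-presenting cell markers, 8 were in the table. They summed to 5.56 and 5.36 FPKM with siGYS1, 8.28 and 6.46 with sip53, and 5.34 and 4.85 with NC. TYROBP and CD80 were at 0 in both sip53 libraries and both NC libraries. CD68, a lysosomal gene that many cell types express, made up most of that sum. It stood at 6.48 and 5.82 FPKM with sip53 and 3.58 and 4.05 with NC (log2 0.81, edgeR adjusted p = 0.0015). ITGAX, an integrin gene, was at 0.55 and 0.25 FPKM with sip53 and 0.07 and 0.06 with NC (log2 2.66, adjusted p = 0.00321). Whether these shifts have a part in the changes below was not tested. In bulk RNA, fewer cells of a type and less RNA per cell cannot be told apart.

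With sip53, 6 of the 9 genes rose against NC and 0 fell, in a comparison where 49.9% of all tested genes passed, 23.4% higher and 26.5% lower. A gene passed at a Benjamini-Hochberg adjusted p below 0.05 in edgeR's quasi-likelihood test. The 6 genes were the heavy chain genes HLA-B and HLA-C, their light chain gene B2M, both transporter genes and TAPBP, at folds from 1.43 to 1.97. HLA-E and the immunoproteasome genes PSMB8 and PSMB9 did not pass. The median log2 fold change of the 9 was 0.53, and that of all tested genes was -0.029. At an unadjusted p below 0.05, again 6 were higher and 0 lower, and the DESeq2 Wald test also called 6 higher and 0 lower.

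HLA-B, a classical heavy chain gene that presents peptides to CD8+ T cells, had the largest rise of the 9. It was at 243.70 and 242.99 FPKM with sip53, against 129.61 and 135.26 FPKM with NC. Both sip53 libraries were above both NC libraries, at 1.97-fold (log2 fold change 0.98, 95% interval 0.77 to 1.19, adjusted p = 3.28e-05). HLA-C, the other classical heavy chain gene of the set, which is also a main ligand of the KIR receptors of NK cells, stood at 201.27 and 193.42 FPKM with sip53 and at 141.15 and 147.52 FPKM with NC. These groups did not overlap either, and the rise was 1.47-fold (log2 0.55, interval 0.36 to 0.75, adjusted p = 0.000688). HLA-E presents peptides cut from the leader sequences of other class I heavy chains to the NK receptor NKG2A. Its levels were 86.80 and 87.47 FPKM with sip53 and 80.84 and 85.22 FPKM with NC. The sip53 libraries were the higher ones by a small margin, and the difference did not pass (log2 0.17, interval -0.02 to 0.36, adjusted p = 0.132). It passed with length-corrected offsets (log2 0.22, adjusted p = 0.00713).

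B2M, the shared light chain without which heavy chains are not stable at the surface, was at 601.05 and 641.67 FPKM with sip53 and 438.56 and 466.48 FPKM with NC. The groups did not overlap, and B2M rose 1.48-fold (log2 0.57, interval 0.37 to 0.77, adjusted p = 0.000646).

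TAP1, a subunit of the peptide transporter, was at 47.77 and 52.63 FPKM with sip53 and 36.78 and 37.57 FPKM with NC. Its rise was 1.44-fold with no overlap (log2 0.53, interval 0.33 to 0.73, adjusted p = 0.000985). TAP2, the other subunit, had 9.25 and 12.76 FPKM with sip53 and 7.17 and 8.29 FPKM with NC. The sip53 libraries differed from each other more than the NC libraries did, and both were above them, with a 1.65-fold rise in the counts (log2 0.72, interval 0.46 to 0.98, adjusted p = 0.000687). On log2(FPKM + 1) with limma, TAP2 did not pass (log2 0.45, adjusted p = 0.0574). TAPBP encodes tapasin, which bridges the transporter and empty class I molecules. It stood at 105.98 and 113.25 FPKM with sip53, against 85.72 and 79.83 FPKM with NC, a 1.43-fold rise with no overlap (log2 0.51, interval 0.33 to 0.70, adjusted p = 0.00063).

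PSMB8 and PSMB9 encode catalytic subunits of the immunoproteasome and lie beside TAP1 and TAP2 on chromosome 6. PSMB8 was at 50.35 and 49.50 FPKM with sip53 and 51.61 and 53.70 FPKM with NC, and did not pass (log2 0.03, interval -0.19 to 0.26, adjusted p = 0.807). On FPKM the sip53 libraries were slightly below the NC libraries, while the count fold change was slightly above 0. PSMB9 was at 25.08 and 24.68 FPKM with sip53, inside the range of 24.20 and 27.25 FPKM with NC (log2 -0.08, interval -0.37 to 0.21, adjusted p = 0.647). The upper ends of both intervals, 0.26 and 0.21, are below the lower end for TAP1, 0.33; the difference between genes was not tested.

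With siGYS1, 2 of the 9 genes rose against NC and 0 fell, beside 19.7% of all tested genes that passed, 10.4% higher and 9.24% lower. Without NC replicate 1 or NC replicate 2, 0 of the 9 passed in edgeR, with 2 higher and 0 lower at an unadjusted p below 0.05 in each case. A share of 2 in 9 is near that background, and the median log2 fold change of the 9 was 0.06, beside -0.009 over all tested genes. B2M was at 509.31 and 561.42 FPKM with siGYS1 and 438.56 and 466.48 FPKM with NC, a 1.25-fold rise with no overlap (log2 0.32, interval 0.12 to 0.52, adjusted p = 0.0338). The B2M call was lost in 8 of 15 alternative settings. Its adjusted p was 0.16 with NC replicate 1 left out, 0.107 with NC replicate 2, 0.0564 with siGYS1 replicate 2, 0.0815 with sip53 replicate 1 and 0.0811 with sip53 replicate 2 left out. TAP2 was at 8.72 and 10.47 FPKM with siGYS1 and 7.17 and 8.29 FPKM with NC, 1.35-fold higher (log2 0.43, interval 0.17 to 0.69, adjusted p = 0.0305). It lost its call in 5 of 15 settings, with an adjusted p of 0.128 when NC replicate 1 was left out and of 0.103 when NC replicate 2 was. At an unadjusted p below 0.05, 3 of the 9 were higher and 1 lower, and DESeq2 called 2 higher and 0 lower.

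The heavy chain genes did not pass with siGYS1. HLA-B was at 124.81 and 145.49 FPKM with siGYS1, a range that encloses the 129.61 and 135.26 FPKM of NC (log2 0.09, interval -0.12 to 0.30, adjusted p = 0.523). With length-corrected offsets HLA-B passed (log2 0.21, adjusted p = 0.0164). HLA-C stood at 133.41 and 149.12 FPKM with siGYS1 and at 141.15 and 147.52 FPKM with NC (log2 0.04, interval -0.16 to 0.23, adjusted p = 0.806). HLA-E was at 69.90 and 76.36 FPKM with siGYS1, below the 80.84 and 85.22 FPKM of NC, and did not pass (log2 -0.12, interval -0.32 to 0.07, adjusted p = 0.348).

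The other genes of the set did not pass with siGYS1 either. TAPBP was at 72.16 and 69.24 FPKM with siGYS1 and 85.72 and 79.83 FPKM with NC. Both siGYS1 libraries were lower, and the difference did not pass (log2 -0.19, interval -0.38 to -0.01, adjusted p = 0.123), except with the replicate block (adjusted p = 0.0457) and with length-corrected offsets (adjusted p = 0.0255). TAP1 was at 39.94 and 42.82 FPKM with siGYS1 and 36.78 and 37.57 FPKM with NC (log2 0.20, adjusted p = 0.142). It passed with the replicate block (adjusted p = 0.0455) and with length-corrected offsets (log2 0.24, adjusted p = 0.0187). PSMB8 stood at 42.53 and 50.85 FPKM with siGYS1 and 51.61 and 53.70 FPKM with NC (log2 -0.10, interval -0.33 to 0.12, adjusted p = 0.506). PSMB9 had 24.93 and 30.59 FPKM with siGYS1 and 24.20 and 27.25 FPKM with NC (log2 0.06, interval -0.23 to 0.34, adjusted p = 0.778).

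**Figure D3:**
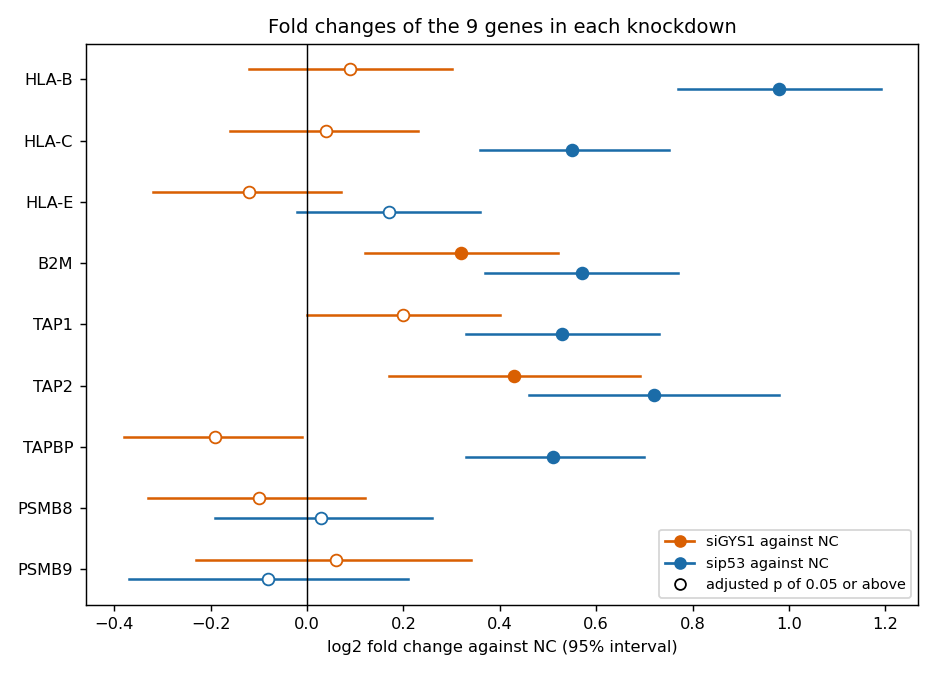
Log2 fold change on the x axis with its 95% interval for the 9 genes, siGYS1 against NC above and sip53 against NC below in each row. Filled points passed at an adjusted p below 0.05: 6 genes in the sip53 comparison, and B2M and TAP2 in the siGYS1 comparison.

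The direct comparison of siGYS1 with sip53 tests whether the knockdowns differ, and it uses no NC library for its fold change. Against sip53, 6 of the 9 genes were lower with siGYS1 and 0 were higher, beside 43.4% of all tested genes that passed, 22.5% higher and 20.9% lower with siGYS1. At an unadjusted p below 0.05, 7 were lower and 0 higher, and DESeq2 called 6 lower and 0 higher. HLA-B differed most (log2 -0.88, interval -1.10 to -0.67, adjusted p = 7.56e-05), followed by TAPBP (log2 -0.71, interval -0.89 to -0.53, adjusted p = 0.000117) and HLA-C (log2 -0.52, interval -0.72 to -0.32, adjusted p = 0.00123). The median over the 9 was -0.29, beside 0.012 over all tested genes. HLA-B, TAPBP and HLA-C passed in all 15 alternative settings. TAP1 was lower by a smaller amount (log2 -0.33, interval -0.53 to -0.12, adjusted p = 0.0155). Leaving out sip53 replicate 1 gave TAP1 an adjusted p of 0.0518, and leaving out sip53 replicate 2 one of 0.161. HLA-E was at -0.29 (adjusted p = 0.0217). The HLA-E call was lost at an adjusted p of 0.0796 without siGYS1 replicate 1, of 0.118 without sip53 replicate 1 and of 0.136 without sip53 replicate 2. B2M passed narrowly (log2 -0.25, adjusted p = 0.0491) and lost its call in 9 of 15 settings. Those include leaving out any single library except siGYS1 replicate 2, with adjusted p-values up to 0.309 (without sip53 replicate 2). TAP2 did not pass (log2 -0.29, interval -0.55 to -0.04, adjusted p = 0.0611). It passed in 4 of 15 settings, at an adjusted p of 0.0157 without siGYS1 replicate 2 and of 0.045 without sip53 replicate 1. PSMB8 (log2 -0.14, interval -0.36 to 0.09) and PSMB9 (log2 0.13, interval -0.15 to 0.42) did not pass either. Without sip53 replicate 2, 3 of the 9 passed.

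The immunoproteasome genes were set against the constitutive subunits they replace, as FPKM ratios in each library. PSMB8 stood at 21.1% and 20.3% of PSMB5 with siGYS1, 17.9% and 17% with sip53, and 21.5% and 18.9% with NC. PSMB9 stood at 17.1% and 16.7% of PSMB6 with siGYS1, 13.9% and 14.9% with sip53, and 13.1% and 12.5% with NC. PSMB10, the remaining catalytic subunit of the immunoproteasome, stood at 4.79% and 5.65% of PSMB7 with siGYS1, 5.66% and 5.76% with sip53, and 5.96% and 5.67% with NC. The PSMB8 ratio was lower in both sip53 libraries than in any other library, and the PSMB9 ratio was highest in both siGYS1 libraries. In edgeR, 0 of PSMB10, PSMB5, PSMB6 and PSMB7 passed against NC in either knockdown, and at an unadjusted p below 0.05 PSMB7 alone was higher, with sip53, where DESeq2 called it. PSMB10 was at log2 -0.25 with siGYS1 and 0.24 with sip53, and PSMB7 at -0.11 and 0.27 (adjusted p = 0.0575 for sip53). With sip53, PSMB7 passed in 7 of 15 settings and PSMB5 in 5 of 15. Without siGYS1 replicate 1 their adjusted p was 0.0134 for PSMB7 and 0.0386 for PSMB5, and without siGYS1 replicate 2 it was 0.00838 and 0.025. With siGYS1, PSMB10 and PSMB6 were lower and passed without siGYS1 replicate 2 (adjusted p = 0.0292 and 0.0218). The PSMB9 ratio with siGYS1 goes with a PSMB6 level of 145.65 and 183.33 FPKM, against 184.38 and 217.52 FPKM with NC (log2 -0.21, adjusted p = 0.273).

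**Figure D4:**
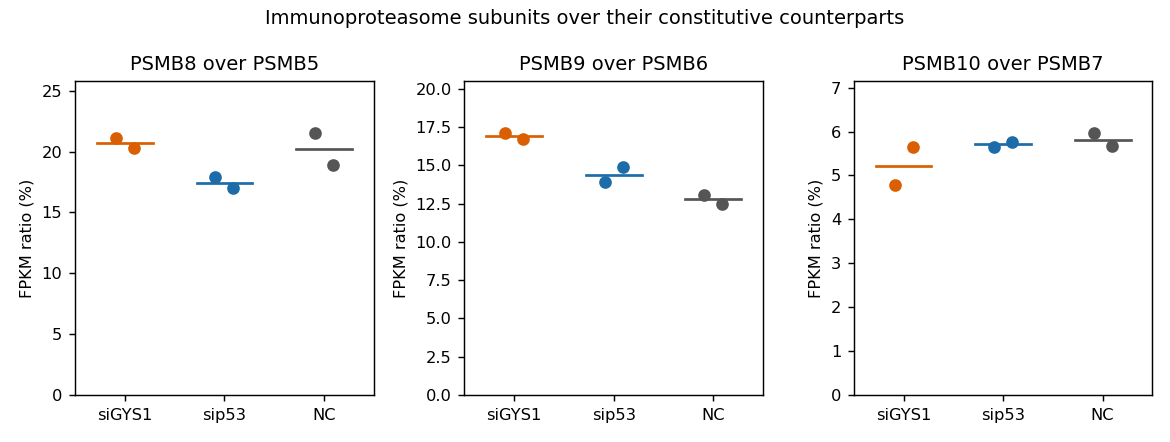
FPKM of each immunoproteasome subunit gene as a percentage of its constitutive counterpart on the y axis, with 1 point per library and a bar at the mean of 2. The PSMB9 over PSMB6 ratio stands at 17.1% and 16.7% with siGYS1, above 13.9% and 14.9% with sip53 and 13.1% and 12.5% with NC.

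Genes around the set were read from lists that name 79 further genes of class I presentation, its regulation and neighbouring pathways, of which 68 were tested. With siGYS1, 5 of the 68 rose and 8 fell, beside 19.7% of all tested genes that passed. With sip53, 19 rose and 9 fell, a smaller share than the 49.9% of all tested genes. HLA-F, a nonclassical heavy chain gene, had 16 and 18 counts with sip53 and 3 and 7 with NC (log2 1.83, SE 0.51, adjusted p = 0.0139). The HLA-F call was lost with DESeq2 (0.0594) and at an adjusted p of 0.102 without NC replicate 1, of 0.0564 without sip53 replicate 1 and of 0.0758 without sip53 replicate 2. In the same list HFE, a class I-like regulator of iron uptake, fell with siGYS1 (log2 -0.48) and with sip53 (log2 -0.91). The HFE call with siGYS1 was lost at an adjusted p of 0.072 without NC replicate 1 and of 0.0544 without NC replicate 2. MR1, which presents vitamin B metabolites, also fell in both (log2 -0.46 and -0.64, edgeR adjusted p = 0.0241 and 0.00168) and was chosen after its values were seen. The MR1 call with siGYS1 was lost with DESeq2, with limma on FPKM and without either NC replicate.

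Of 7 tested chaperone and trimming genes of the endoplasmic reticulum, among them CALR, CANX, PDIA3, ERAP1 and ERAP2, 0 passed in edgeR in either comparison with NC. Of all tested genes, 19.7% passed with siGYS1 and 49.9% with sip53, shares that also stand beside the proteasome lists below. At an unadjusted p below 0.05, 1 of the 7 was higher with siGYS1 and 0 with sip53. DESeq2 called 1 with siGYS1 and 0 with sip53. CANX, the calnexin gene, had the smallest p, at log2 0.27 with siGYS1 (adjusted p = 0.0636) and 0.20 with sip53 (adjusted p = 0.0966). It passed without siGYS1 replicate 2, at an adjusted p of 0.00718 with siGYS1 and of 0.0303 with sip53, and for sip53 also without siGYS1 replicate 1, at 0.044. With the replicate block its adjusted p was 0.00704 with siGYS1 and 0.0238 with sip53. The median log2 fold change of these 7 was -0.03 with siGYS1 and 0.01 with sip53. Of 5 further immunoproteasome and proteasome activator genes, only POMP, a proteasome assembly factor gene, passed, with sip53 (log2 0.47, adjusted p = 0.00501; adjusted p = 0.0575 without sip53 replicate 1). Of 11 other subunit genes of the proteasome core, PSMB1 fell with siGYS1 (log2 -0.51, adjusted p = 0.0283). That call was lost in 6 settings, and PSMB1 stood at -0.32 without NC replicate 2 (adjusted p = 0.235). Its adjusted p was 0.0665 without siGYS1 replicate 1, 0.0737 without sip53 replicate 1 and 0.072 without sip53 replicate 2. PSMA3 fell with sip53 (log2 -0.29, adjusted p = 0.0454), a call also lost in 6 settings. PSMA3 stood at -0.19 without NC replicate 2 (adjusted p = 0.3), and its adjusted p was 0.144 without sip53 replicate 1 and 0.222 without sip53 replicate 2.

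Genes of class I transcription went both ways. Of 15 tested, 3 rose and 2 fell with siGYS1, beside 19.7% of all tested genes that passed, and 7 rose and 3 fell with sip53, beside 49.9%. NLRC5, the transactivator of class I genes, had 116 and 105 counts with sip53 and 29 and 33 with NC (log2 1.92, SE 0.19, adjusted p = 3.68e-05). The count rise was 3.79-fold. On FPKM the rise of NLRC5 with sip53 was smaller, at 1.4 and 1.24 against 0.69 and 0.68 with NC. With siGYS1 it had 57 counts in each library (log2 0.95, SE 0.21, adjusted p = 0.0123). The NLRC5 call with siGYS1 was lost at an adjusted p of 0.0668 without NC replicate 1, of 0.0544 without NC replicate 2, and on FPKM, where NLRC5 was at 1.05 and 0.68 with siGYS1 and 0.69 and 0.68 with NC. RFX5, a subunit of the RFX complex with which NLRC5 acts, fell with siGYS1 to 28.30 and 22.97 FPKM and with sip53 to 33.88 and 31.09 FPKM, against 47.19 and 51.36 FPKM with NC. Its log2 fold changes were -0.95 with siGYS1 (adjusted p = 0.000169) and -0.49 with sip53 (adjusted p = 0.00114). IRF9, a DNA-binding subunit of a factor of the type I interferon response, went opposite ways, at log2 -0.82 with siGYS1 (adjusted p = 0.00473) and 0.89 with sip53 (adjusted p = 0.000357). The direct difference was -1.72 (adjusted p = 1.39e-05). RELA and NFKB1, NF-kB subunit genes, rose with sip53 (log2 0.59 and 0.39, adjusted p = 0.000442 and 0.00398) and stood at 0.09 and -0.02 with siGYS1. CREB1, which binds the cyclic AMP response element, rose in both as well (log2 0.44 and 0.50). RFXANK and NFYB, of the same list, fell with sip53 (log2 -0.45 and -0.51, edgeR adjusted p = 0.0108 and 0.00101). With siGYS1 neither passed (log2 -0.37 and 0.01, adjusted p = 0.0529 and 0.924). RELA, NFKB1, CREB1, RFXANK and NFYB were chosen from the list after their values were seen.

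Of 7 tested receptor and kinase genes of interferon signalling, 4 rose and 0 fell with sip53, a share near the 49.9% of all tested genes that passed; 5 were higher and 0 lower at an unadjusted p below 0.05 and DESeq2 called 5 higher and 0 lower. With siGYS1, 2 rose and 1 fell, TYK2 (log2 -0.36, adjusted p = 0.0297), which did not pass without NC replicate 1 or without NC replicate 2 and was chosen after its values were seen. IFNAR2, a receptor subunit for type I interferon, stood at 24.61 and 25.70 FPKM with siGYS1, 30.85 and 31.74 with sip53, and 18.04 and 17.27 with NC. IFNGR1, the ligand-binding receptor subunit for interferon gamma, was at 31.89 and 29.39 FPKM with siGYS1, 51.06 and 45.48 with sip53, and 27.48 and 25.73 with NC. Its rise with sip53 was 0.93 on the log2 scale (adjusted p = 3.36e-05), and with siGYS1 it did not pass (log2 0.24, adjusted p = 0.0902), except with the replicate block (adjusted p = 0.0281) and with length-corrected offsets (log2 0.34, adjusted p = 0.0066). JAK1, a kinase of both receptor types, rose with siGYS1 (log2 0.71, adjusted p = 0.0011) and with sip53 (log2 0.58, adjusted p = 0.000703).

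Of 5 tested stress ligand genes that NK cells read, 2 rose and 0 fell with sip53, beside 49.9% of all tested genes that passed. MICB, a stress-induced ligand of the NK receptor NKG2D, was at 33.16 and 35.78 FPKM with sip53 and 11.80 and 11.27 FPKM with NC (log2 1.68, SE 0.09, adjusted p = 1.3e-06). MICA, its paralog, was at 37.27 and 36.95 FPKM with sip53 and 28.25 and 30.88 FPKM with NC (log2 0.41, adjusted p = 0.00551; adjusted p = 0.0574 without NC replicate 1). With siGYS1 0 of the 5 tested stress ligand genes passed in edgeR or DESeq2, beside 19.7% of all tested genes that passed in edgeR. At an unadjusted p below 0.05 in edgeR, 1 of the 5 was higher and 0 lower. MICB passed with siGYS1 with length-corrected offsets (log2 0.28, adjusted p = 0.0267). Of 5 tested T cell checkpoint ligand genes, CD276 rose with sip53 (log2 0.67, adjusted p = 0.000383) and VTCN1 fell (log2 -1.93, adjusted p = 3.52e-05). That share is near the 49.9% of all tested genes that passed. With siGYS1, 0 of these 5 passed in edgeR or DESeq2 (1 higher at an unadjusted p below 0.05 in each), beside 19.7% of all tested genes in edgeR. CD276 passed there with the replicate block (adjusted p = 0.0194) and with length-corrected offsets (adjusted p = 0.0203).

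Of 6 tested MHC class II genes, 0 rose and 2 fell with siGYS1, beside 19.7% of all tested genes that passed. With sip53, 2 rose and 2 fell, beside 49.9%. HLA-DMB had the highest level of the 6 with NC and with siGYS1. With sip53 it overlapped CD74, which was at 56.18 and 59.32 FPKM there and is named after its values were seen. HLA-DMB encodes a chain of HLA-DM, which exchanges peptides on class II molecules. HLA-DMB was at 86.95 and 90.94 FPKM with siGYS1 and 64.51 and 56.61 FPKM with sip53, against 168.94 and 178.74 FPKM with NC. Its log2 fold changes were -0.91 (adjusted p = 0.000394) with siGYS1 and -1.48 (adjusted p = 3.5e-06) with sip53. CIITA, the class II transactivator gene, was at 0.18 to 0.35 FPKM in all 6 libraries and is named after its values were seen. HLA-DRB1 was at 0.96 and 1.23 FPKM with sip53 and 0.44 and 0.45 with NC. HLA-DQB1 was at 2.72 and 2.34 FPKM with sip53 and 0.81 and 1.65 with NC. Both passed with sip53 (log2 1.38 and 1.15, adjusted p = 0.0159 and 0.00758). The HLA-DRB1 call was lost with DESeq2 (0.146) and at an adjusted p of 0.092 without NC replicate 1, of 0.0649 without NC replicate 2 and of 0.118 without sip53 replicate 2. The HLA-DQB1 call was lost at 0.0582 without NC replicate 1 and at 0.0586 without sip53 replicate 1. HLA-DMA, the other chain of HLA-DM, fell in both (log2 -0.79 with siGYS1 and -0.75 with sip53) and was chosen after its values were seen.

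**Figure D5:**
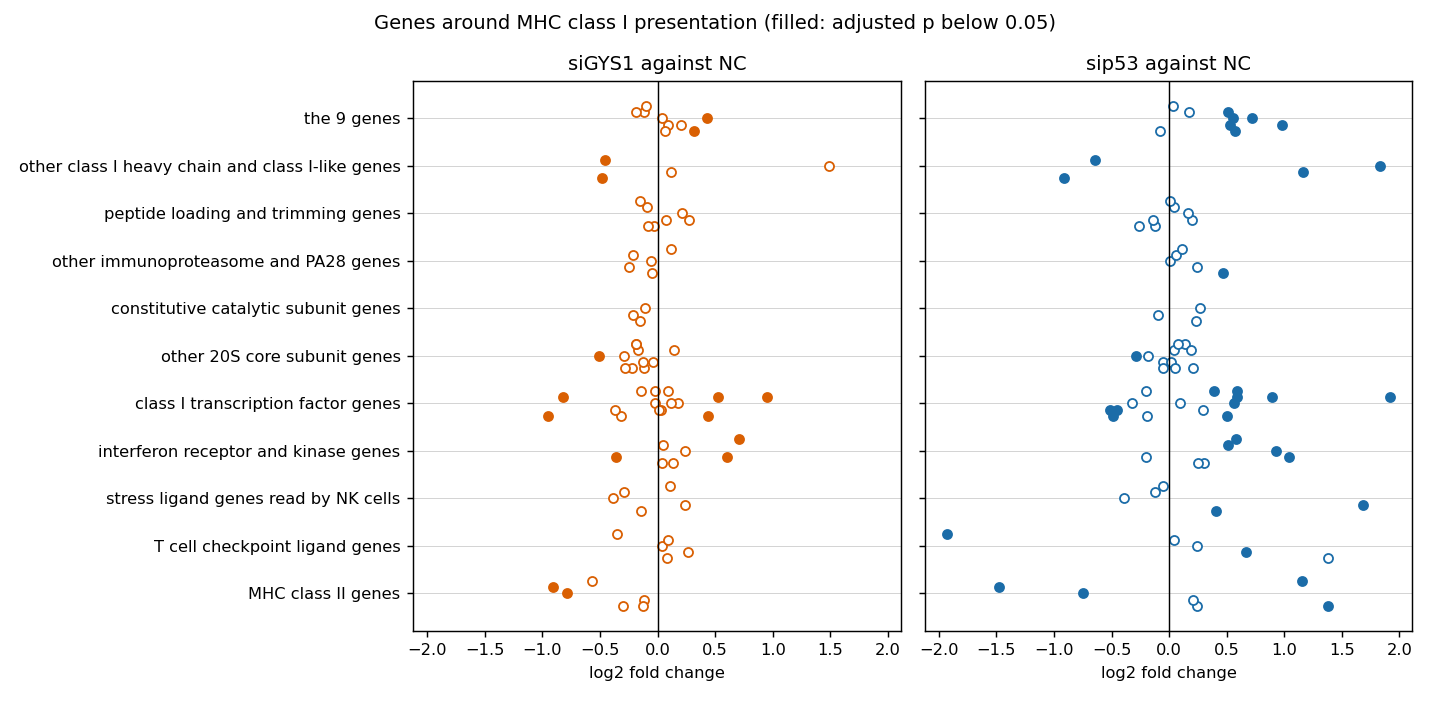
Log2 fold change on the x axis for each tested gene of the 9 and of the lists around them, siGYS1 against NC on the left and sip53 against NC on the right, with filled points for an adjusted p below 0.05. The 9 genes reach 0.98 with sip53 and 0.43 with siGYS1, and the 7 peptide loading and trimming genes have no filled point on either side.

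HLA-B, the member with the largest change, was compared with all 11803 tested genes outside the 9 that had a mean of at least 1 FPKM. Over the 6 libraries, its log2 CPM values (depth-scaled counts) were among the closest by Pearson's r to those of HBEGF (0.9996), WSCD1 (0.9983), PKM (0.9979) and IFNGR2 (0.9978). The libraries fall into 3 groups of 2, so these values mainly record that sip53 was high and that siGYS1 and NC were close. HBEGF, a growth factor gene, was at 11.93 and 12.44 FPKM with sip53 and 4.97 and 5.27 FPKM with NC. PKM, the pyruvate kinase gene, was at 1990.11 and 2008.74 FPKM with sip53 and 1266.23 and 1346.37 FPKM with NC.

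Reads of these genes are not all unique to them. Of the 50-base words of the longest coding transcript, 2.54% in HLA-B, 6.71% in HLA-C and 5.13% in HLA-E also occur in transcripts of other genes, chiefly other HLA genes. The share was 35.8% in TAP2, shared with AL669918.1, a coding gene that overlaps it, and with TAP1, and 0 in B2M, PSMB8 and PSMB9. The expected counts of HLA-B, HLA-C and TAP2 were not whole in any of the 6 libraries. Those of TAPBP, with 6.09% of its words shared, were not whole in 4 libraries, and those of HLA-E in 2. The levels of these genes therefore include reads split between genes. In GENCODE 29, exons of PSMB8 overlap those of PSMB9 on the opposite strand by 139 bases. The antisense RNA gene PSMB8-AS1 overlaps exons of PSMB8 by 618 bases and of TAP1 by 456 bases on the opposite strand, and a pseudogene overlaps those of HLA-B by 542 bases. The use of strand in counting was not given in the sources used here.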

How the data were processed

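Expected counts, FPKM and TPM per gene were deposited by the authors in 1 table for the 6 libraries, per the file headers. The expected counts are not normalized, and 16.8% to 18.1% of them per library are not whole (tolerance 1e-09). The authors' FPKM are per length and depth, and the deposited TPM sum to 1000000 in each library within rounding. The submitters' processing notes list several aligners and counters without roles and name a mouse build, mm10, for a table of human Ensembl identifiers. The counting tool was not given in the sources used here. Another 18 columns (normalized counts and group means) were not used.

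Expected counts were rounded. The quasi-likelihood test of edgeR 4.0.16, run in R 4.3.3, used TMM factors on genes past filterByExpr (minimum count 10). A single model held all 6 libraries and no term besides group (3 residual degrees of freedom). P-values were adjusted by Benjamini-Hochberg over all 13235 genes. Standard errors (SE) are the absolute log2 fold change over the square root of F. The procedure was checked on simulated counts. DESeq2 1.42.0 and limma 3.58.1 gave alternatives. Both comparisons with NC share the NC libraries. The members and gene lists were chosen with earlier results of these data known. Genes named from a list are the 3 or fewer that passed with the largest change; in a list with no call, the gene of smallest p is named. The level of the sip53 target and some genes of the lists are not reported here. Motifs were chosen from textbook class I regulation after the fold changes were known. Replicates of a group differed by more than counting noise.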

Additional observations from a re-analysis of the deposited data

How the results depend on the processing

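The sip53 rises of HLA-B, HLA-C, B2M, TAP1 and TAPBP passed in all 15 alternatives, and that of TAP2 in 13, failing with limma on FPKM. Members called with sip53 numbered 5 to 7 over the settings, and 6 in each of those without 1 library. With siGYS1, members called were 1 with no filter on low counts, 1 with only both compared groups, 4 with the replicate block, 5 with length-corrected offsets, 0 with limma on FPKM at either pseudocount (1 higher and 1 lower at an unadjusted p below 0.05; edgeR and DESeq2 called 2) and 0 to 2 without 1 library. For siGYS1 against sip53 they were 3 to 7 without 1 library. All genes called with siGYS1 were 1577 with only both compared groups, 4662 with the replicate block, 4121 with length-corrected offsets and 926 (without NC replicate 2) to 4260 (without siGYS1 replicate 2) without 1 library. For sip53 they were 4271 to 7621 and for siGYS1 against sip53 3416 to 6337. DESeq2 called 1398 genes higher and 799 lower with siGYS1, and limma on log2(FPKM + 1) 619 and 1184, against 1379 and 1223. For sip53 that limma fit gave 2056 higher and 3716 lower, against 3103 and 3502, and for siGYS1 against sip53 2687 and 2033, against 2979 and 2766. No fold change that passed changed sign. Some that did not pass did, with siGYS1 those of HLA-C, PSMB8, PSMB9, POMP, PSMB7, PKM and IFNGR2, with sip53 those of PSMB8, PSMB9, PSMB1 and PSMB6, and between the knockdowns those of PSMB9, CANX and PSMB6; the cause of the lost calls was not tested.

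Replicate numbers are shared by the groups but nothing says that they pair libraries. Deviations from the group means correlated at 0.28 for siGYS1 and NC, -0.02 for sip53 and NC and 0.13 for siGYS1 and sip53. In siGYS1 replicate 1, log2 CPM relative to the mean of all libraries rose with transcript length (Spearman 0.54 across genes) and in NC replicate 2 it fell (-0.39), against -0.08 to 0.04 in the other libraries. B2M, shorter than all but 5.86% of tested genes, was at log2 0.47 with siGYS1 and 0.64 with sip53 after length-corrected offsets. A library left alone in its group was assumed to vary like the others.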
